A study of Arabidopsis thaliana with 36 samples.

Results

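S8H (locus AT3G12900), F6'H1 (AT3G13610) and BGLU42 (AT5G36890) are Arabidopsis thaliana genes of the coumarin branch of iron acquisition. They were taken as every probe set that the array's annotation assigns to these 3 genes. That gave 1 probe set each, 257135_at for S8H, 256647_at for F6'H1 and 249636_at for BGLU42, so 3 of the 22746 probe sets tested, and none of them names a further gene. The annotation gives S8H by its locus code alone, and F6'H1 is a synonym that RefSeq lists for AT3G13610. Levels were measured in roots and shoots of a pair of natural ecotypes, Kas-1 and Tsu-1, here called Kas and Tsu, on 36 single-colour Affymetrix arrays, 3 for each of 12 groups. All plants were 24 d old and came from rockwool fed with hydroponic solution, with 16 h of light a day at 150 µmol per square metre and second, and the labels name no transgene or mutation. For each ecotype and tissue, 1 group stayed for 24 h on complete medium, in which iron was supplied at 50 µM as the chelate Fe(III)-EDDHA. Another group was kept without iron for 24 h and another for 48 h.

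Plants other than grasses take up iron by reducing ferric iron at the root surface, and ferric iron is poorly soluble in alkaline soil. Their roots release coumarins, phenolic compounds that dissolve and reduce ferric iron. F6'H1, feruloyl-CoA 6'-hydroxylase, starts the branch by opening the way to scopoletin. S8H, scopoletin 8-hydroxylase, turns scopoletin into fraxetin. Both belong to the iron- and 2-oxoglutarate-dependent dioxygenases, so both need iron for catalysis. BGLU42 is a beta-glucosidase that frees coumarins from their stored glucosides before release. It is known to act with the transcription factor MYB72 in roots.

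The labels were checked first. The series title and the extraction protocol name rosettes for every sample, while the sample titles name roots and shoots. The mean of 4 photosystem genes (PSAE1, PSAN, PSBW and PSBY) lay between 3.26 and 4.68 on the log2 scale in the 18 root arrays and between 11.63 and 11.90 in the 18 shoot arrays. The mean of the 3 root markers measured (EXPA7, EXPA18 and PYK10) lay between 7.60 and 8.64 in roots and between 4.00 and 4.68 in shoots, so every array matched the tissue in its title. An ecotype index was built from 82 probe sets that separated Kas from Tsu at 48 h without iron in both tissues, scaled to 0 for Tsu and 1 for Kas. The arrays at 48 h without iron chose these probe sets and set the 0 and the 1. They lie near their label's level by construction, so the index checks only the other arrays. Of the 36 arrays, 10 lay over 0.25 from their label's level, 7 of them roots and 3 shoots. In roots these were replicate 3 of Tsu with iron, all 3 of Tsu after 24 h without iron, replicates 2 and 3 of Kas with iron, and replicate 1 of Kas after 24 h without iron. In shoots they were all 3 of Tsu after 24 h without iron, at 0.401 to 0.567. The source of these intermediate values was not tested. The main results for S8H, F6'H1 and BGLU42 that rest on those arrays are given with and without them. The pathway and regulator genes named below were not refitted without those arrays. Without them a single array is left for Kas roots with iron, replicate 1, and the fit takes it to vary as the other groups do. For Tsu at 24 h without iron none remains in either tissue.

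S8H rose in roots of both ecotypes after 48 h without iron, 11.07-fold in Kas and 9.71-fold in Tsu, and was called higher in no shoot comparison. In Kas roots its log2 expression values were 2.77, 5.08 and 2.99 with iron. They were 6.92, 5.59 and 4.68 after 24 h without iron, and 7.06, 7.16 and 7.02 after 48 h. With iron 2 of the 3 readings lay near the lower quartile of their arrays (2.74 to 2.78), so they are dim, and the fold change is that of the deposited values, with its compression at dim readings not tested. All 3 arrays at 48 h lay above every array with iron, while at 24 h the lowest array without iron fell under the highest with iron. The change at 48 h was 3.47 (SE 0.56, 95% confidence interval 2.29 to 4.65) with a limma adjusted p of 0.00221. It held without each of the 6 arrays in turn, at 3.05 to 4.20 with adjusted p of at most 0.0208. Of all probe sets, 6.73% were called in that comparison, where called means an adjusted p below 0.05. Without the arrays off their label's index it was 4.31 (adjusted p = 0.000131), against the single Kas array with iron, the one at 2.77. At 24 h the difference was 2.12 (SE 0.56, 95% confidence interval 0.93 to 3.30) and missed the threshold (adjusted p = 0.0612), in a comparison where 1.94% of probe sets were called. Leaving out each array gave 1.52 to 2.85, with adjusted p from 0.00217 to 0.301, and it passed only without replicate 2 with iron, the array at 5.08. Without the off-label arrays, against the same single control array, it was 2.36 (adjusted p = 0.012).

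Other features of the arrays moved with the root groups. On the array's control for 25S ribosomal RNA the mean value was 10.22 ± 0.47 (SD, n = 3) in Kas roots with iron, 9.61 ± 2.14 after 24 h without it and 6.08 ± 0.85 after 48 h. In Tsu roots it was 9.70 ± 1.32, 11.01 ± 0.04 and 10.64 ± 1.22 in the same order. The photosystem mean was 4.30 ± 0.47 in Kas roots with iron, 3.58 ± 0.15 at 24 h without it and 4.32 ± 0.13 at 48 h. In Tsu roots the photosystem mean went from 3.92 ± 0.13 with iron to 3.38 ± 0.14 at 24 h without it, and the root marker mean from 8.40 ± 0.13 to 7.84 ± 0.24. The GAPDH control, 3' minus 5' probe set, went from 0.26 ± 0.05 to -0.33 ± 0.08 between the same groups. The part of these features in the changes of the 3 genes was not tested.

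In Tsu roots S8H stood at 6.32, 5.26 and 6.69 with iron. It reached 7.22, 7.92 and 7.05 after 24 h without iron and 9.77, 8.88 and 9.46 after 48 h. The 3 groups did not overlap, and they stepped up in the order iron, 24 h and 48 h. The middle step rests on off-label arrays, since all 3 at 24 h had an index of 0.412 to 0.667. The change at 48 h was 3.28 (SE 0.56), with a limma adjusted p of 0.00704, and 1.62% of probe sets were called there. It lost the threshold without replicate 1 at 48 h (3.08, adjusted p = 0.0619) and was 3.58 (adjusted p = 0.000557) without the off-label array with iron. At 24 h the difference was 1.31 (95% confidence interval 0.12 to 2.49, adjusted p = 0.168), where 6.98% of probe sets were called. There was no complete-medium group at 48 h, so both comparisons of an ecotype and tissue share their control arrays. At 48 h the lack of iron and the longer growth cannot be told apart. In whole roots, more RNA per cell and more cells that express a gene cannot be told apart either. The labels do not say whether a group's arrays were separate cultures, so the p-values rest on a spread that may be technical.

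**Figure D1:**
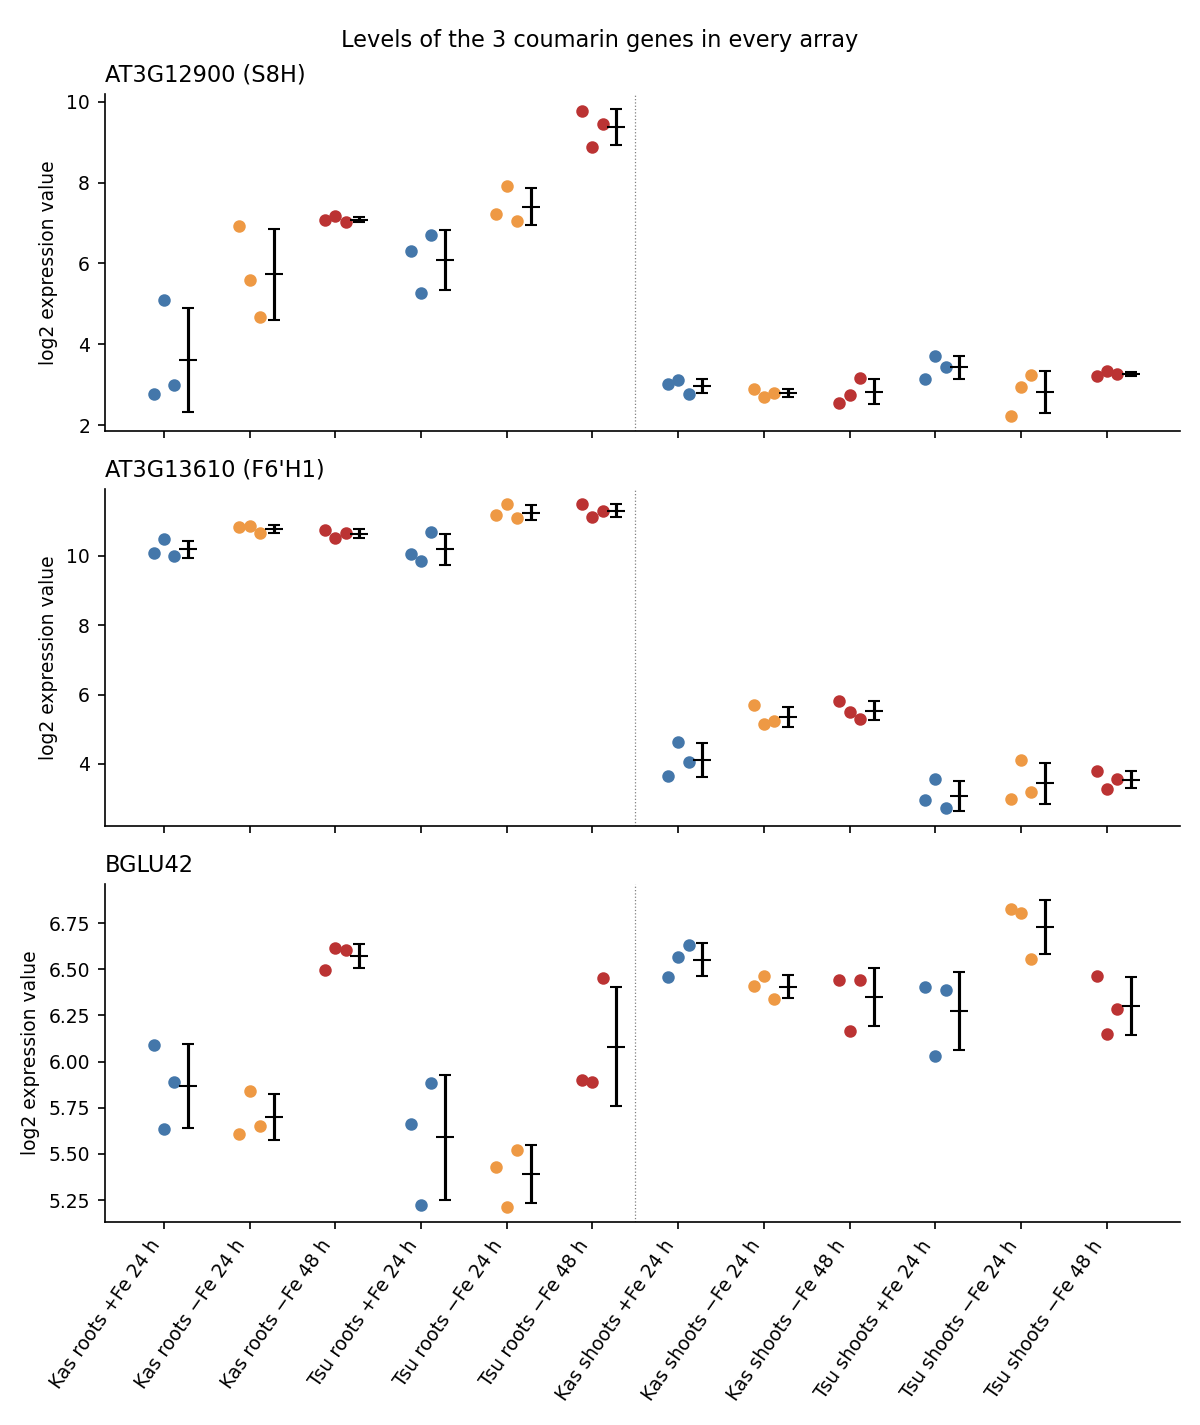
Log2 expression value of S8H, F6'H1 and BGLU42 in each of the 36 arrays, with the mean and SD of each group of 3 drawn beside its points and a scale of its own for each gene. Root groups stand to the left of the dotted line and shoot groups to the right. S8H is highest in Tsu roots after 48 h without iron (8.88 to 9.77), F6'H1 splits into roots (9.84 and above) and shoots (5.83 and below), and BGLU42 stays between 5.22 and 6.82.

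Between 24 h and 48 h without iron, S8H went on rising in Tsu roots, by 1.97 (SE 0.56, 3.93-fold, limma adjusted p = 0.0387), against 7.87% of probe sets called. That call was lost without any of 5 of the 6 arrays, with adjusted p from 0.0712 to 0.134. All 3 Tsu arrays at 24 h were off-label, and with the index as a covariate the value was 0.75 (adjusted p = 0.905). In Kas roots the 3 arrays at 48 h all lay above the 3 at 24 h, and the difference was 1.35 (95% confidence interval 0.17 to 2.53, adjusted p = 0.31), where 0.277% of probe sets were called. Without the off-label arrays, of which replicate 1 at 24 h enters here, it was 1.95 (adjusted p = 0.0448). In these roots the arrays at 24 h spread from 4.68 to 6.92, while those at 48 h lay within 7.02 to 7.16.

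S8H was lower in Kas than in Tsu roots on complete medium and after 48 h without iron. On complete medium Kas averaged 3.61 ± 1.28 and Tsu 6.09 ± 0.74 (SD, n = 3), a Kas minus Tsu difference of -2.48 (SE 0.56, 5.56-fold lower in Kas, limma adjusted p = 0.0143) with no overlap of the arrays. Of all probe sets, 9.86% were called in that comparison. The call was lost without replicate 1 of Kas (-2.05, adjusted p = 0.0839) or replicate 3 of Kas (-2.16, adjusted p = 0.0704), or with only the 6 arrays compared in the fit (adjusted p = 0.156), and it was -3.02 (adjusted p = 0.00153) without the off-label arrays, with Kas then at the single array of 2.77. The Kas side of this comparison is dim, as said above. After 24 h without iron the difference was -1.67 (adjusted p = 0.0652), where 11.4% of probe sets were called, and leaving out each array gave -2.26 to -1.14, with adjusted p from 0.0153 (without replicate 1 of Kas) to 0.271. All 3 Tsu arrays there were off-label, and a fit that holds the index as a covariate gave -0.86 (adjusted p = 0.445). After 48 h without iron Kas averaged 7.08 ± 0.07 and Tsu 9.37 ± 0.45, a difference of -2.29 (4.88-fold lower in Kas, adjusted p = 0.00683) that held without each array. There 24.7% of probe sets were called, 2058 higher and 3571 lower in Kas. These 6 arrays are among those that set the ecotype index. A difference in transcript level and a difference in how well each ecotype's sequence matches the array's probes cannot be told apart here.

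The iron response of S8H did not differ detectably between the ecotypes in roots. At 48 h the Kas change minus the Tsu change was 0.19, with a 95% confidence interval of -1.48 to 1.86 (limma adjusted p = 0.897), so differences of up to about 1.86 on the log2 scale were within the error. Leaving out each array gave -0.23 to 0.92 at 48 h. Without the off-label arrays, against a single Kas array with iron, the 48 h value was 0.73. At 24 h the Kas change minus the Tsu change was 0.81 (95% confidence interval -0.86 to 2.48, adjusted p = 0.582), with all Tsu arrays without iron off-label. Part of the Kas readings with iron were dim, as said above, and the effect of that on these differences was not tested. The ecotype by iron test called 5.04% of probe sets in roots at 24 h and 7.94% at 48 h.

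**Figure D2:**
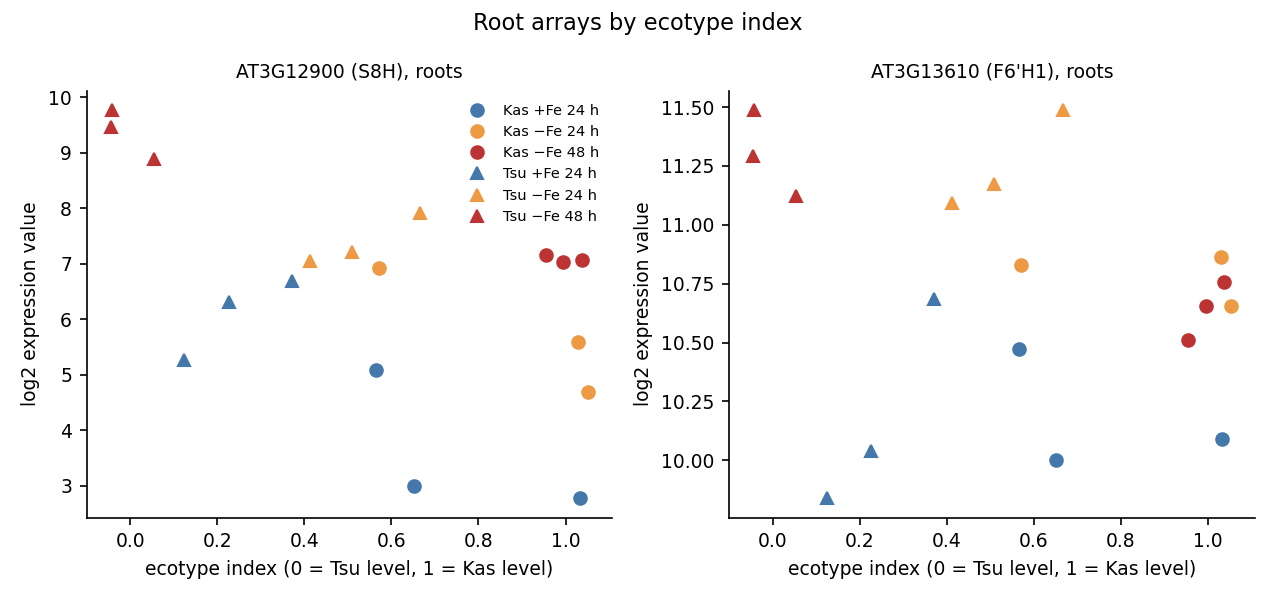
Log2 expression value of S8H (left) and F6'H1 (right) in the 18 root arrays, against the ecotype index of the array (0 for Tsu, 1 for Kas). Circles are Kas and triangles Tsu, coloured by medium and time. Within Kas with iron and within Kas at 24 h without iron, the highest S8H values (5.08 and 6.92) belong to the arrays with the lowest index (0.565 and 0.571), while another array with iron at an index of 0.652 has 2.99.

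In shoots S8H gave low values in every group, from 2.24 to 3.70. The lower quartile of the arrays lay between 2.72 and 3.05, so these are dim readings. Kas shoots had 3.02, 3.11 and 2.77 with iron, and their differences without iron were -0.18 at 24 h and -0.14 at 48 h (limma adjusted p = 0.769 and 0.802). Tsu shoots had 3.15, 3.70 and 3.43 with iron and 2.24, 2.96 and 3.24 after 24 h without it. That is a fall of 0.62 (SE 0.20, 95% confidence interval -1.03 to -0.20, adjusted p = 0.0399), although the arrays overlapped. Of all probe sets, 16.1% were called in this comparison of Tsu shoots at 24 h, and all 3 of its arrays without iron were off their label's index. The call was lost without any of 4 of the 6 arrays, with the value moving to -0.33 (adjusted p = 0.25) without replicate 1 at 24 h, and to an adjusted p of 0.448 with all 36 arrays in 1 fit. At 48 h the difference in Tsu shoots was -0.16 (adjusted p = 0.756), where 4.34% of probe sets were called.

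The difference between roots and shoots was tested directly. The iron effect on S8H in roots exceeded that in shoots by 3.61 in Kas (SE 0.63, limma adjusted p = 0.000559) and by 3.44 in Tsu (SE 0.63, adjusted p = 0.00224) at 48 h. Both held without each array in turn. The shares of probe sets called by this tissue by iron test at 48 h were 8.29% in Kas and 2.41% in Tsu. At 24 h the excess was 2.29 in Kas (adjusted p = 0.0409), a call lost without any of 10 of the 12 arrays, and 1.92 in Tsu (adjusted p = 0.0534). Shares called at 24 h were 2.86% in Kas and 8.05% in Tsu. On complete medium S8H was higher in roots than in shoots in Tsu, by 2.66 (SE 0.44, 6.33-fold, adjusted p = 4.29e-06). In Kas on complete medium the difference was 0.65 (95% confidence interval -0.26 to 1.55, adjusted p = 0.221) and the arrays overlapped. Between the tissues on complete medium, 55.5% of probe sets were called in Kas and 56.8% in Tsu.

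F6'H1, the enzyme at the entry to the branch, was a root gene on every array. On complete medium roots exceeded shoots by 6.09 in Kas (67.97-fold) and by 7.11 in Tsu (138.2-fold), with SE 0.26 and limma adjusted p of 9.53e-20 and 1.51e-21. The Tsu shoot readings behind the second value are dim, near the lower quartile of the arrays, so its fold too is that of the deposited values. Without iron it rose in Tsu roots, 2.09-fold at 24 h and 2.16-fold at 48 h, and the differences in Kas roots missed the threshold. Tsu roots gave 10.04, 9.84 and 10.68 with iron, 11.17, 11.49 and 11.09 at 24 h without it, and 11.49, 11.12 and 11.29 after 48 h. Every array without iron lay above every array with iron, and the arrays at 24 h and 48 h overlapped. The change was 1.06 at 24 h (SE 0.19, adjusted p = 0.00282) and 1.11 at 48 h (SE 0.19, adjusted p = 0.00694). The call at 24 h held without each array, at 0.89 to 1.31, and its 3 arrays without iron were all off-label. The GAPDH, photosystem and root marker values given above for these arrays moved with it. With only the 6 arrays compared in the fit, the adjusted p became 0.0506 at 24 h and 0.178 at 48 h. The call at 48 h was lost without replicate 1 at 48 h (1.02, adjusted p = 0.0632), and it was 1.36 (adjusted p = 0.00212) without the off-label array with iron. From 24 h to 48 h the difference was 0.05, with a 95% confidence interval of -0.35 to 0.45.

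In Kas roots F6'H1 gave 10.09, 10.47 and 10.00 with iron. After 24 h without iron the arrays read 10.83, 10.86 and 10.65, and after 48 h 10.76, 10.51 and 10.66. Here too no array without iron fell to the level of an array with iron. The differences were 0.59 at 24 h (95% confidence interval 0.20 to 0.99, limma adjusted p = 0.122) and 0.45 at 48 h (95% confidence interval 0.05 to 0.85, adjusted p = 0.161). Leaving out each array gave 0.50 to 0.74 at 24 h, with adjusted p from 0.0357 (without replicate 2 with iron, the array at 10.47) to 0.433, and 0.36 to 0.60 at 48 h, with none passing. Without the off-label arrays the differences were 0.67 (adjusted p = 0.147) and 0.55 (adjusted p = 0.189). The ecotypes started at the same level, 10.19 each, with a Kas minus Tsu difference of 0.00 (95% confidence interval -0.40 to 0.40). After 24 h without iron Kas minus Tsu was -0.47 (adjusted p = 0.127). After 48 h it was -0.66 (SE 0.19, adjusted p = 0.0171), with Kas at 10.64 ± 0.12 below Tsu at 11.30 ± 0.18 and no overlap. That call was lost without replicate 2 of Kas (adjusted p = 0.0642) or replicate 1 of Tsu (adjusted p = 0.0802). The ecotype by iron difference itself was -0.66 at 48 h (95% confidence interval -1.22 to -0.10, adjusted p = 0.129), so the rise was not shown to differ between the ecotypes. Leaving out each array gave -0.91 to -0.485, with adjusted p from 0.0243 (without replicate 3 of Tsu with iron, an off-label array) to 0.262. Without all off-label arrays it was -0.81 (adjusted p = 0.108).

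In shoots F6'H1 averaged higher in Kas than in Tsu in each condition, and an ecotype by tissue difference was not tested. Kas shoots gave F6'H1 values of 3.64, 4.62 and 4.04 with iron, 5.69, 5.16 and 5.23 at 24 h without it, and 5.83, 5.50 and 5.29 after 48 h. No array without iron fell within the range of those with iron. The rise was 1.26 at 24 h (SE 0.28, 2.39-fold, limma adjusted p = 0.021) and 1.43 at 48 h (SE 0.28, 2.70-fold, adjusted p = 0.0047), where 1.86% and 4.11% of probe sets were called. The rise at 48 h held without each array, at 1.20 to 1.69 with adjusted p of at most 0.0336. The call at 24 h was lost without any of 5 of the 6 arrays, with adjusted p from 0.0507 to 0.107. The 9 Kas shoot arrays all lay near the Kas level of the index, at 0.983 to 1.01, those at 48 h by construction.

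Tsu shoots gave F6'H1 values of 2.95, 3.57 and 2.72 with iron, 2.99, 4.12 and 3.20 at 24 h without it, and 3.79, 3.29 and 3.55 after 48 h. The 3 groups overlapped. The differences were 0.36 (95% confidence interval -0.21 to 0.94, limma adjusted p = 0.44) and 0.46 (95% confidence interval -0.11 to 1.04, adjusted p = 0.415). These values lie near the lower quartile of the arrays, so a small change there would be hard to see. Kas shoots exceeded Tsu shoots by 1.03 with iron (2.04-fold, adjusted p = 0.00676), by 1.92 after 24 h without it (3.79-fold, adjusted p = 5.43e-05) and by 1.995 after 48 h (3.99-fold, adjusted p = 8.94e-06). The comparisons between shoots of the ecotypes called 33.2%, 20.2% and 36.7% of all probe sets in the same order, so a call there is common. The 25S ribosomal RNA control differed between these groups too, at 9.03 ± 0.46 in Kas against 5.55 ± 0.37 in Tsu with iron, 9.65 ± 0.27 against 6.16 ± 0.44 at 24 h and 9.79 ± 0.01 against 7.20 ± 1.68 at 48 h, and its part was not tested. With iron the call was lost without replicate 2 of Kas (0.77, adjusted p = 0.0543), while those without iron held without each array. The Tsu arrays at 24 h were all off-label, which leaving out 1 array at a time cannot test. The ecotype by iron difference was 0.90 at 24 h (95% confidence interval 0.08 to 1.71, adjusted p = 0.164) and 0.97 at 48 h (95% confidence interval 0.16 to 1.78, adjusted p = 0.189), and neither passed. That test called 11.2% of probe sets in shoots at 24 h and 3.94% at 48 h. The 24 h value rests on the off-label Tsu shoots, and leaving out each array gave 0.65 to 1.24, with adjusted p from 0.0331 (without their replicate 2, the array at 4.12) to 0.348.

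For F6'H1 the iron effect was not shown to differ between roots and shoots. Roots minus shoots was -0.66 at 24 h and -0.98 at 48 h in Kas (limma adjusted p = 0.377 and 0.0892), and 0.70 and 0.65 in Tsu (adjusted p = 0.262 and 0.377). Leaving out each array moved the value of Kas at 48 h over -1.24 to -0.75, with adjusted p from 0.033 (without replicate 2 of Kas shoots with iron) to 0.25.

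**Figure D3:**
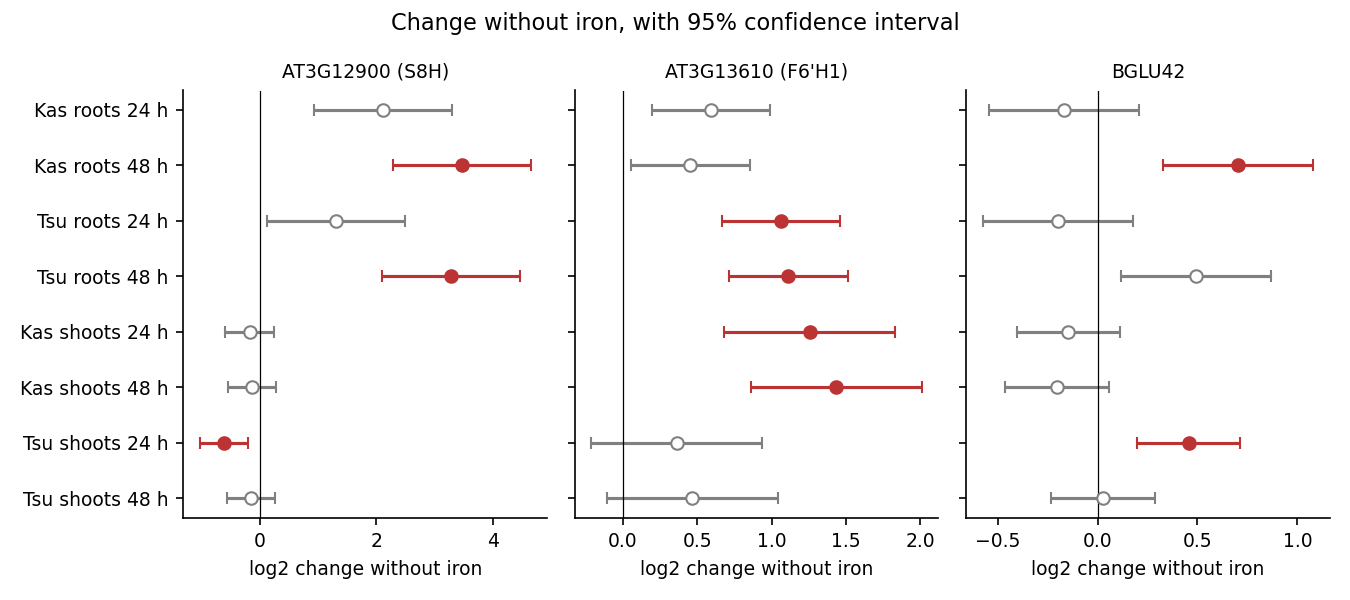
Log2 change without iron of each gene in the 8 iron comparisons, with 95% confidence intervals from limma and a scale of its own for each gene. Filled red points have an adjusted p below 0.05 and open grey points do not. S8H passes upward in roots at 48 h in both ecotypes, F6'H1 in Tsu roots and Kas shoots at both times, and BGLU42 in Kas roots at 48 h and Tsu shoots at 24 h.

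BGLU42, the glucosidase of the release step, moved within a narrow range, from 5.22 to 6.82 over the 36 arrays. In Kas roots it gave 6.09, 5.63 and 5.89 with iron, 5.61, 5.84 and 5.65 at 24 h without it, and 6.50, 6.62 and 6.61 after 48 h. The arrays at 48 h stood above all others of Kas roots, and those at 24 h overlapped with the controls. The change was 0.70 at 48 h (SE 0.18, 1.63-fold, limma adjusted p = 0.0255) and -0.17 at 24 h (adjusted p = 0.767). The call at 48 h was lost without any of 5 of the 6 arrays, with adjusted p from 0.0537 to 0.0906. It was also lost without the off-label arrays, at 0.49 (adjusted p = 0.38). The 25S ribosomal RNA values given above for Kas roots at 48 h moved with it too.

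Tsu roots gave BGLU42 values of 5.66, 5.22 and 5.89 with iron, 5.43, 5.22 and 5.52 at 24 h without it, and 5.90, 5.89 and 6.45 after 48 h. The 48 h arrays lay above those with iron, by a margin of less than 0.01 at the nearest pair. The difference was 0.49 (95% confidence interval 0.12 to 0.87, limma adjusted p = 0.178) at 48 h and -0.20 (adjusted p = 0.518) at 24 h. Without the off-label array with iron the 48 h difference was 0.64 (adjusted p = 0.137). From 24 h to 48 h without iron BGLU42 rose in both root sets, by 0.87 in Kas (SE 0.18, adjusted p = 0.0499) and by 0.69 in Tsu (SE 0.18, adjusted p = 0.024). The Kas call was lost without any of the 6 arrays and the Tsu call without any of 3, with adjusted p of up to 0.175 and 0.131. Without the off-label arrays the Kas value was 0.83 (adjusted p = 0.215). All 3 Tsu arrays at 24 h were off-label, and with the index as a covariate the Tsu value was 0.94 (adjusted p = 0.16).

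In shoots BGLU42 was higher than in roots on complete medium, by 0.68 in each ecotype (1.60-fold in Kas and 1.61-fold in Tsu, limma adjusted p = 0.00034 and 0.000317). Without the off-label arrays the Kas difference, roots minus shoots, was -0.46 and missed the threshold (adjusted p = 0.0814). Kas shoots gave 6.46, 6.57 and 6.63 with iron, 6.41, 6.47 and 6.34 after 24 h and 6.44, 6.17 and 6.44 after 48 h, with differences of -0.15 (adjusted p = 0.668) and -0.20 (adjusted p = 0.446). Tsu shoots gave 6.40, 6.03 and 6.39 with iron, 6.82, 6.80 and 6.56 at 24 h without it, and 6.46, 6.15 and 6.29 after 48 h. The 24 h arrays lay above both other groups of Tsu shoots. The rise at 24 h was 0.46 (SE 0.12, 1.37-fold, adjusted p = 0.0151), and from 24 h to 48 h BGLU42 fell by 0.43 (SE 0.12, adjusted p = 0.0304). All 3 arrays behind that rise were off their label's index, and the call was lost without replicate 1 or 2 at 24 h or replicate 2 with iron (adjusted p = 0.0626, 0.0647 and 0.0953). With all 36 arrays in 1 fit the rise had an adjusted p of 0.0514. The fall was lost without any of 4 of the 6 arrays. At 48 h the difference from iron was 0.03 (adjusted p = 0.942).

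The comparison of 48 h with 24 h without iron in shoots called 0.378% of probe sets in Kas and 10.7% in Tsu. Of the 3 genes, BGLU42 in Tsu was the call there. The iron effect on BGLU42 in shoots at 24 h was lower in Kas than in Tsu by 0.60 on the log2 scale, a difference of -0.60 (SE 0.18, limma adjusted p = 0.0302). That was the single call among 12 ecotype by iron tests of the 3 genes. The comparison called 11.2% of all probe sets, and all 3 of its Tsu arrays without iron were off-label. The BGLU42 call was lost without any of 7 of the 12 arrays, with adjusted p from 0.0559 to 0.0866. It was also lost with all 36 arrays in 1 fit (adjusted p = 0.0956) and with the index as a covariate (adjusted p = 0.993). As fitted, no BGLU42 difference between the ecotypes passed in 6 comparisons. The nearest was in roots after 48 h without iron, where Kas exceeded Tsu by 0.49 (95% confidence interval 0.12 to 0.87, adjusted p = 0.0526). It passed with all 36 arrays in 1 fit (adjusted p = 0.0152), under quantile normalization (0.62, adjusted p = 0.0123), without dim probe sets (adjusted p = 0.043) and without replicate 3 of Tsu (0.68), while leaving out each array gave adjusted p of up to 0.188. In Kas at 48 h the iron effect on BGLU42 was higher in roots than in shoots by 0.91 (SE 0.22, adjusted p = 0.00924). Without the off-label arrays it was 0.69 and missed the threshold (adjusted p = 0.116).

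Over the 8 iron comparisons the 3 genes gave 24 tests, of which 8 were called higher and 1 lower. The share of all probe sets called in these comparisons ran from 1.62% in Tsu roots at 48 h to 16.1% in Tsu shoots at 24 h. F6'H1 had 4 rises, S8H 2 rises and 1 fall, and BGLU42 2 rises. No comparison called all 3 genes. Kas and Tsu roots at 48 h and Tsu shoots at 24 h called 2 genes each, Tsu roots at 24 h and Kas shoots at both times 1 each, and Kas roots at 24 h and Tsu shoots at 48 h 0. By unadjusted p below 0.05 in limma, those last comparisons gave 2 of the 3 genes in Kas roots at 24 h, S8H and F6'H1, and 0 in Tsu shoots at 48 h. Of all 22746 probe sets, 3239 and 3989 had such a p in the same comparisons.

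The order of the 12 groups differed between the genes. For S8H it ran from Tsu roots at 48 h without iron (9.37 ± 0.45) through Tsu roots at 24 h (7.40 ± 0.46), Kas roots at 48 h (7.08 ± 0.07), Tsu roots with iron (6.09 ± 0.74) and Kas roots at 24 h (5.73 ± 1.13) to Kas roots with iron (3.61 ± 1.28). The shoot groups followed, at 2.79 to 3.43. Of the 11 steps between neighbours, 3 were free of overlap between arrays: below Tsu roots at 48 h, below Kas roots at 48 h and below Tsu shoots at 48 h. Kas roots after 48 h without iron thus overlapped with Tsu roots after 24 h, whose arrays were all off-label. For each gene the groups were sorted by its own means. Steps free of overlap were not counted for other probe sets.

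For F6'H1, Tsu roots at 48 h (11.30 ± 0.18) and at 24 h (11.25 ± 0.21) came first. They were followed by Kas roots at 24 h (10.78 ± 0.11) and 48 h (10.64 ± 0.12), and by roots with iron of both ecotypes (10.19 ± 0.25 in Kas and 10.19 ± 0.44 in Tsu). Kas shoots at 48 h (5.54 ± 0.27) and 24 h (5.36 ± 0.29) came next, before Kas shoots with iron (4.10 ± 0.49) and the Tsu shoots (3.08 to 3.54). Of 11 steps, 4 were free of overlap: below Tsu roots at 24 h, below Kas roots at 48 h, between roots and shoots, and below Kas shoots at 24 h. The Tsu arrays at 24 h without iron, in both tissues, were all off-label. For BGLU42 the group means ran from 6.73 ± 0.15 in Tsu shoots at 24 h to 5.39 ± 0.16 in Tsu roots at 24 h. Each of its 11 steps overlapped, and Kas roots at 48 h (6.57 ± 0.07) ranked second, among the shoots.

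The rest of the coumarin pathway was covered thinly. Of 24 other pathway genes entered, 7 had a probe set with a single gene name: HCT, COSY (AT1G28680, entered in the list under that name), F6'H2, UGT72E1, UGT72E2, UGT72E3 and BGLU23. CYP82C4, which makes sideretin from fraxetin, and the exporter ABCG37 were not analysed here. In each of the 4 root comparisons 1 of 7 was called higher and 0 lower, and it was UGT72E1, a glucosyltransferase of phenylpropanoids, each time. Shares of all probe sets called at 24 h and 48 h were 1.94% and 6.73% in Kas roots and 6.98% and 1.62% in Tsu roots. Kas roots had UGT72E1 at 7.10 ± 0.58 with iron, 8.95 ± 0.07 after 24 h without it and 9.03 ± 0.09 after 48 h. The rises were 1.85 (SE 0.27, limma adjusted p = 0.00616) and 1.92 (SE 0.27, adjusted p = 0.00106). In Tsu roots it rose by 1.13 (adjusted p = 0.0199) and 1.74 (adjusted p = 0.00385), and the arrays at 24 h without iron were all off-label. Replicates 2 and 3 of Kas roots with iron, replicate 1 of Kas roots at 24 h and replicate 3 of Tsu roots with iron were off-label too.

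In shoots UGT72E1 went both ways. In Tsu it rose by 0.99 at 24 h (adjusted p = 5.95e-06, limma) and by 0.59 at 48 h (adjusted p = 0.00838), and in Kas it fell by 0.48 at 24 h (adjusted p = 0.0462). The ecotype by iron difference of UGT72E1 in shoots was -1.47 at 24 h (adjusted p = 7.56e-06). HCT, an acyltransferase of the phenylpropanoid route, fell by 0.29 in Tsu shoots at 24 h (adjusted p = 0.0464). All 3 Tsu shoot arrays at 24 h without iron, on which that difference and both Tsu changes at 24 h rest, were off-label. Iron called 16.1% of all probe sets in Tsu shoots at 24 h, and the ecotype by iron test 11.2%. Of the 7 pathway genes that test called 1 higher and 1 lower at 24 h. At 48 h it called 0 higher and 1 lower, beside 3.94% of all probe sets. UGT72E1 averaged 6.76 with iron and 6.73 at 48 h without it in Kas shoots. In Tsu shoots it averaged 6.34 and 6.93. The iron comparison of Kas shoots at 48 h called 0 of 7, beside 4.11% of all probe sets. F6'H2, the near relative of F6'H1, stayed at group means of 3.03 to 3.60 in the 12 groups and was called in no iron comparison.

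The medians of the 7 pathway genes in the 8 iron comparisons lay between -0.16 and 0.18, beside -0.03 to 0.04 for all probe sets. Called higher in roots than in shoots on complete medium were 5 of 7 in Kas and 7 of 7 in Tsu, where 55.5% and 56.8% of all probe sets were called, 6905 and 7207 of them higher in roots. F6'H2 and UGT72E1, not called in Kas, had differences of 0.0272 (limma adjusted p = 0.903) and 0.35 (adjusted p = 0.182) there. BGLU23, an endoplasmic reticulum body glucosidase that also stands among the root markers as PYK10, was higher by 6.12 in Kas and 6.04 in Tsu. COSY, a BAHD-type enzyme that closes the coumarin ring, was higher in Kas than in Tsu shoots in each condition, by 0.65, 0.49 and 1.06 (adjusted p = 0.00386, 0.0356 and 2.77e-05), as F6'H1 was. The Tsu arrays behind the 0.49, at 24 h without iron, were all off-label. Of the 7 pathway genes, 3 were called higher and 1 lower in Kas shoots with iron. At 24 h without it 3 were higher and 2 lower, and at 48 h 2 and 0. Their medians were 0.05, -0.11 and -0.06, and 33.2%, 20.2% and 36.7% of all probe sets were called. In roots COSY was higher in Kas on complete medium, by 0.62 (adjusted p = 0.0308), and the differences without iron were 0.11 at 24 h (adjusted p = 0.744) and 0.47 at 48 h (adjusted p = 0.0509). The 0.62 rests in part on off-label arrays, replicates 2 and 3 of Kas and replicate 3 of Tsu. The ecotype by iron difference of COSY in roots was -0.51 at 24 h (adjusted p = 0.229) and -0.15 at 48 h (adjusted p = 0.711), so the ecotype difference was not shown to depend on iron.

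**Figure D4:**
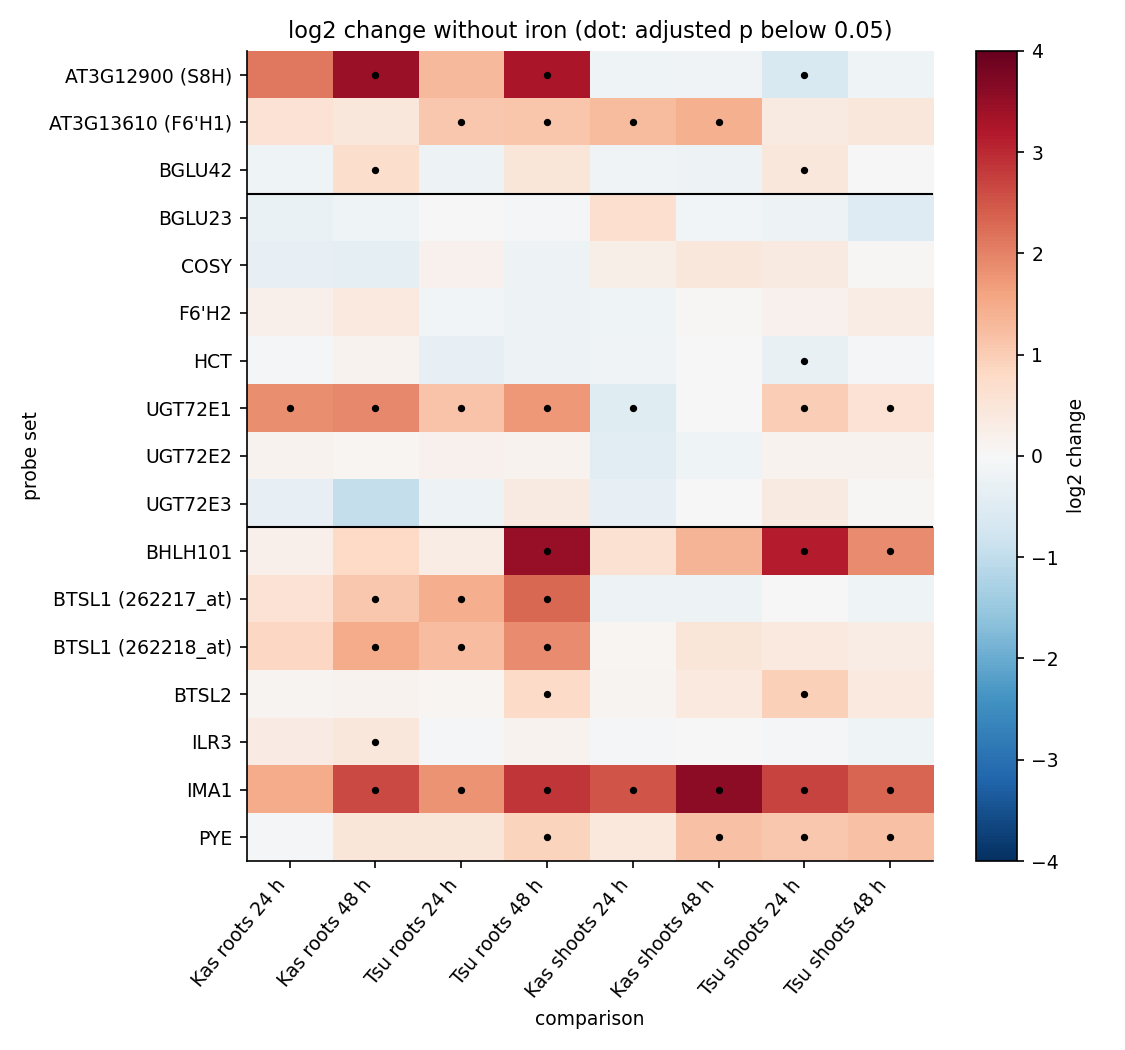
Log2 change without iron (colour) in the 8 iron comparisons for S8H, F6'H1 and BGLU42 (top block), 7 other coumarin pathway genes (middle) and 7 probe sets of iron regulators (bottom). A dot marks an adjusted p below 0.05. UGT72E1 has a dot in all 4 root comparisons, and IMA1 in every comparison other than Kas roots at 24 h.

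Regulators of the iron response were read beside the members, from 6 genes with 7 probe sets of 13 genes entered. Those with a probe set were BHLH101, PYE and ILR3, which are transcription factors, the ubiquitin ligase genes AT1G74770 (entered as BTSL1, with a pair of probe sets) and AT1G18910 (entered as BTSL2), and AT1G47400, entered as IMA1, a small signalling peptide. FIT and MYB72, the factors best known for this pathway, and the uptake genes IRT1, FRO2 and AHA2 were not analysed here. Called higher were 0 of 7 in Kas roots at 24 h, 4 at 48 h, 3 in Tsu roots at 24 h and 6 at 48 h, beside 1.94%, 6.73%, 6.98% and 1.62% of all probe sets called. In shoots it was 1 and 2 in Kas and 4 and 3 in Tsu, beside 1.86%, 4.11%, 16.1% and 4.34%, and none was called lower in an iron comparison. Their median changes ran from 0.09 in Kas shoots at 24 h to 1.88 in Tsu roots at 48 h.

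IMA1 rose by 2.63 in Kas roots (SE 0.46, limma adjusted p = 0.00359) and 2.84 in Tsu roots (SE 0.46, adjusted p = 0.00486) at 48 h, where S8H rose too. It also rose by 3.58 in Kas shoots at 48 h (adjusted p = 1.87e-06) and 2.71 in Tsu shoots at 24 h (adjusted p = 2.2e-06), where S8H did not rise. The arrays without iron behind the 2.71 were all off-label. Of the root arrays with iron, replicates 2 and 3 of Kas and replicate 3 of Tsu were off-label. BHLH101 rose by 3.49 in Tsu roots at 48 h (adjusted p = 0.00122). Its ecotype by iron difference there was -2.70 (adjusted p = 0.0238), the 1 call among the 7 regulator probe sets, beside 7.94% of all probe sets. BHLH101 averaged 2.39 with iron and 3.18 at 48 h without it in Kas roots, and 2.81 in Tsu roots with iron. These are dim readings near the lower quartile of the arrays. In Tsu roots at 48 h it averaged 6.30 ± 1.57. The S8H difference of 0.19 did not pass, and the pair of differences was not compared by a test. After 48 h without iron 5 of 7 regulator probe sets were lower in Kas than in Tsu roots and 0 higher, beside S8H and F6'H1, which were lower in Kas too. Of all probe sets 24.7% were called there, 3571 lower and 2058 higher in Kas, so lower calls in Kas were common.

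The profiles of the 3 genes were set against each other and against 13512 other probe sets with 1 gene name. Over the 18 root arrays S8H and F6'H1 had a Pearson r of 0.79. Over the 18 shoot arrays it was -0.42, where S8H readings were dim. BGLU42 had an r of 0.16 with S8H and -0.01 with F6'H1 in roots. These arrays share groups, ecotype and treatment, so the values describe a common pattern over the design and have no p.

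After subtraction of each tissue's mean, the closest to S8H over the 36 arrays were AT3G61930 (r = 0.91), AT3G58060 (0.87), AT1G74770 with both its probe sets (0.86 and 0.83) and AT5G38820 (0.85). For F6'H1 they were ATMND1 (0.85), AT3G01830 (0.84), AT2G16900 (0.81), AT3G18250 (0.81) and AT1G65820 (0.79). For BGLU42 they were AT5G51560 (0.72), AT5G15940 (0.69), AT5G55530 (0.68), AT3G18190 (0.67) and AT4G15755 (0.66), so its best likeness was weaker. Over the 6 root group means the closest were AT2G16365 for S8H, AT3G02555 for F6'H1 and AT1G76400 for BGLU42, with r of 0.994, 0.985 and 0.996 over only 6 points each.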

How the data were processed

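The authors deposited 1 log2 expression value per probe set and array (range 1.31 to 13.47, array medians 4.91 to 5.14). How they corrected background, summarised probes and normalized, and with which software, is not stated by any source at hand. Detection calls did not enter. Groups came from the sample titles. Of 22810 probe sets, 64 controls were left out and 22746 tested without a filter on dim values. Gene names came from the platform annotation, in which 13513 probe sets name 1 gene, and 13436 of these matched RefSeq (TAIR10.1, for names alone). No pair of arrays held identical values (highest correlation 0.996).

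limma 3.58.1 (R 4.3.3; lmFit, eBayes) fitted 1 mean per group over the 18 arrays of a tissue, or over all 36 for comparisons between tissues. Tests were two-sided with Benjamini-Hochberg adjustment over all probe sets and calls at an adjusted p below 0.05. The procedure was tested on simulated data with independent normal noise. These held no off-label arrays and no compression of dim readings, so they cannot test those limits. Named genes were the 3 members, the entered pathway, regulator and uptake lists matched by locus, and the 5 closest profiles to each member. The ecotype index used probe sets differing by at least 2 on the log2 scale. Members and lists were chosen with earlier results of these data known. The number of arrays limits the precision.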

Additional observations from a re-analysis of the deposited data

Results flagged for a closer look

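A direct test of the difference between groups passed for 5 values. These came from 12 tissue by iron tests and 12 ecotype by iron tests of the 3 genes. Over all probe sets, the shares called were 2.41% to 8.29% and 3.94% to 11.2% in that order. For S8H the iron effect was larger in roots than in shoots by 2.29 in Kas at 24 h, by 3.61 in Kas at 48 h and by 3.44 in Tsu at 48 h (limma adjusted p = 0.0409, 0.000559 and 0.00224, SE 0.63 each). The S8H call in Kas at 24 h was lost without any of 10 of the 12 arrays. For BGLU42 the iron effect was larger in Kas roots than in Kas shoots at 48 h by 0.91 (SE 0.22, adjusted p = 0.00924). Without the off-label arrays, against a single Kas root array with iron, that difference was 0.69. In shoots at 24 h the iron effect on BGLU42, Kas minus Tsu, was -0.60 (SE 0.18, adjusted p = 0.0302), and its Tsu arrays without iron lay between the ecotypes on the index.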

How the results depend on the processing

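The count of the 3 genes called kept within 1.5 times its value under quantile normalization and with the replicate number as a block. Leaving out each array gave 0 to 2 in Kas roots at 24 h, 1 to 2 at 48 h, 1 to 1 and 0 to 2 in Tsu roots, 0 to 1 and 1 to 1 in Kas shoots, and 0 to 2 and 0 to 0 in Tsu shoots. In Kas roots at 24 h the count went from 0 to 1 with all 36 arrays in 1 fit, with a mean-dependent prior variance, with the ecotype index as a covariate, without off-label arrays and without dim probe sets. At 48 h there it went from 2 to 1 with the index as a covariate and without off-label arrays. In Tsu roots at 24 h it went from 1 to 2 with all 36 arrays and to 0 with only the arrays compared, and at 48 h from 2 to 1 with only the arrays compared. In Kas shoots it became 0 at both times without dim probe sets, since that filter removes F6'H1. In Tsu shoots at 24 h it went from 2 to 0 with all 36 arrays and with the index, and to 1 with only the arrays compared or without dim probe sets.

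With the index as a covariate, which carries the ecotype difference by construction, the Kas minus Tsu difference of F6'H1 turned to -5.52, -1.55 and -4.69 in shoots (iron, 24 h and 48 h) and to -0.10 in roots with iron. Its iron effect in Tsu shoots at 24 h turned to -2.67. The ecotype by iron difference turned to -0.0201 for BGLU42 in roots and -0.047 for S8H in shoots, both at 48 h. The root calls of S8H at 48 h stayed, at 4.03 in Kas (adjusted p = 0.00152, range over its alternatives 4.06e-06 to 0.0208) and 2.71 in Tsu (adjusted p = 0.0316, range 1.55e-05 to 0.0619). Without off-label arrays the ecotype by iron difference of BGLU42 in roots at 48 h was -0.15 and the Kas root minus shoot difference of S8H -0.20. The Tsu groups at 24 h without iron then had no array and could not be fitted. Quantile normalization gave -0.0314 for F6'H1 from 24 h to 48 h in Tsu roots and 0.0622 for S8H between the ecotypes in shoots at 24 h without iron. The causes were not tested.

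Leaving out 1 array turned the sign of 13 values that had not passed. For BGLU42 they ranged over -0.12 to 0.21 (ecotype by iron, roots at 24 h), -0.14 to 0.0853 (tissue by iron, Kas at 24 h), -0.0932 to 0.10 (iron, Tsu shoots at 48 h), -0.10 to 0.0365 (24 h to 48 h, Kas shoots) and -0.026 to 0.14 (Kas minus Tsu, shoots at 48 h). For S8H they ranged over -0.15 to 0.15 and -0.23 to 0.92 (ecotype by iron at 48 h, shoots and roots), -0.31 to 0.19 (Kas minus Tsu, shoots at 24 h), -0.13 to 0.17 (24 h to 48 h, Kas shoots) and -0.0887 to 1.07 (roots minus shoots, Kas). For F6'H1 they ranged over -0.12 to 0.44 and -0.0434 to 0.17 (24 h to 48 h, Tsu shoots and roots) and -0.17 to 0.25 (Kas minus Tsu, roots with iron).

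Counts of all probe sets called depended on which arrays share the fit. In roots, Kas 24 h and 48 h and Tsu 24 h and 48 h gave 442, 1531, 1587 and 368. With all 36 arrays these became 1328, 2908, 3221 and 1349, and with only the arrays compared 22, 940, 684 and 15. In shoots, in the order Kas 24 h and 48 h and Tsu 24 h and 48 h, the comparisons gave 424, 935, 3666 and 988, then 235, 585, 2734 and 535, then 355, 691, 3425 and 165. The index as a covariate gave 733 in Kas roots at 24 h, 549 and 185 in Tsu roots and 12 in Tsu shoots at 24 h. Leaving out 1 array gave 12 to 1567, 417 to 2276, 495 to 2266 and 55 to 461 in the root comparisons and 161 to 294, 452 to 758, 2641 to 3047 and 360 to 1993 in the shoot comparisons, in the same order.

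The replicate numbers do not pair the arrays: no iron comparison had all 3 correlations of same-numbered deviations over 0.1. With the replicate block the counts of the 3 genes did not change, and 409 probe sets were called in Kas roots at 24 h. Of single values, S8H from 24 h to 48 h in Tsu roots (adjusted p = 0.0528) and S8H tissue by iron in Kas at 24 h (0.0503) no longer passed, while BGLU42 between the ecotypes in roots at 48 h (0.0395) and BGLU42 tissue by iron in Tsu at 24 h (0.0462) did. Readings near the arrays' lower quartile, S8H in shoots and in 2 of 3 Kas root arrays with iron, and F6'H1 in Tsu shoots, limit what changes can be seen there.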
